A study of Mus musculus with 15 samples.

Results

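The RNA polymerase III non-coding RNAs considered here were RN7SL1, RN7SL2, RN7SK, RMRP and RPPH1, found by their symbols in both deposited count tables. Of these 5 symbols, 4 stood on a single row among 56967 rows kept, and RMRP, which stood on more than 1 row, was left out. RN7SL2 was the only one of the 4 with any read. RN7SL1, RN7SK and RPPH1 had 0 counts in all 15 libraries, as did both RMRP rows. The symbols were chosen with counts of these libraries in view, so every value of RN7SL2 below is a description and carries no p-value.

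RNA polymerase III makes short, abundant transcripts that do not usually end in a poly(A) tail. RN7SL1 and RN7SL2 encode near-identical copies of 7SL RNA, the scaffold of the signal recognition particle, which brings ribosomes making secreted and membrane proteins to the endoplasmic reticulum. RN7SK encodes 7SK RNA, which holds the elongation kinase P-TEFb in an inactive particle. RMRP and RPPH1 encode the RNA parts of RNase MRP and RNase P, enzymes that cut precursors of ribosomal and transfer RNA. The genome also holds many pseudogenes derived from these RNAs, 7SL and 7SK above all.

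By the labels, the 15 libraries were of MDA-MB-468, an established human line from a basal-like breast carcinoma; the markers given below do not all fit that label. The 5 groups of 3 libraries each received short hairpin RNAs in a microRNA-type backbone: shSHCBP1_1 and shSHCBP1_2 against SHCBP1, 2 sets against TMEM45A, and a control hairpin, NC. By the labels every library had received a hairpin, and no untreated cells were analysed here. In the shTMEM45A table the columns carry the numbers 2 and 4, unlike the labels, which have hairpins 1 and 2, and the names set 2 and set 4 follow the columns. Column number 2 was taken as the labels' second hairpin and number 4 as the remaining one by elimination. Polyadenylated RNA was selected on oligo-dT beads before random priming, so RNAs without a tail were measured only as far as they passed that selection. Kit reads carried no strand. NC and shSHCBP1 share a count table and shTMEM45A has its own, so for shTMEM45A against NC the target and the table cannot be told apart. In bulk RNA, fewer cells with a transcript and less of it per cell cannot be told apart either.

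Library totals lay between 13748138 and 16460265 counts. Levels below are CPM, counts relative to the TMM-scaled library total, and 3 counts in a library, the floor used for a count of 0, came to 0.165 to 0.229 CPM. TMEM45A itself was at 17.8 ± 1.86 CPM in set 4 and 19.4 ± 0.760 CPM in set 2, against 26.6 ± 2.08 CPM in NC (SD, n = 3), and was lower in both (edgeR quasi-likelihood, adjusted p = 8.8e-06 and adjusted p = 0.000181). Its log2 changes were -0.58 and -0.46. Of all genes tested, 38.9% were called lower in set 4 and 39.8% in set 2. SHCBP1, not the target there, was called higher in both sets, by 0.25 and 0.44. SHCBP1 was not lower in the libraries labelled shSHCBP1, at 47.0 ± 1.24 CPM in shSHCBP1_1 and 44.2 ± 1.11 CPM in shSHCBP1_2, against 44.0 ± 2.53 CPM in NC (adjusted p = 0.412 and adjusted p = 0.962). Markers of the labelled line were in part absent. EGFR and the keratins KRT8 and KRT18 were read in every group, EGFR at 8.23 and 9.06 CPM in set 4 and set 2 and 15.4 CPM in either shSHCBP1 group, against 16.3 CPM in NC. EPCAM and CDH1, further markers of that line, were also read in every group. In set 4, set 2, shSHCBP1_1, shSHCBP1_2 and NC, EPCAM was at 7.183, 7.911, 5.99, 6.424 and 4.784 CPM. CDH1 was at 7.897, 7.147, 11.86, 11.57 and 11.99 CPM in that order. The keratin KRT17 had 93, 47, 6, 5 and 5 counts in that order. KRT5 had 0 counts, and KRT7, KRT14 and KRT19 had at most 7 counts over the 3 libraries of any group. Neurofilament genes, markers of an embryonic kidney line, were abundant, with NEFL at 7164, 6234, 2790 and 2332 counts in shSHCBP1_1, shSHCBP1_2, set 4 and set 2, and 7587 in NC. The keratins at or near 0 and the neurofilament genes put the identity of the line in doubt. Other markers of it were read, EGFR among them, but their levels were not compared with those of that line. Which line it was cannot be told from these genes here. The part of these genes in the results was not tested.

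RN7SL2 was far more abundant in the shTMEM45A libraries than in any other. In set 4 it had 213, 302 and 309 CPM. In set 2 it had 331, 96.4 and 302 CPM. Every shTMEM45A library stood above every NC library, and replicate 2 of set 2 was the lowest of the 6. The NC libraries had 24.4, 19.1 and 20.8 CPM and lay close together. The libraries labelled shSHCBP1_1 had 15.2, 10.3 and 5.78 CPM, and those labelled shSHCBP1_2 had 5.59, 6.21 and 4.15 CPM. All 6 were below all 3 NC libraries, and the ranges of both shSHCBP1 groups overlapped each other.

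**Figure D1:**
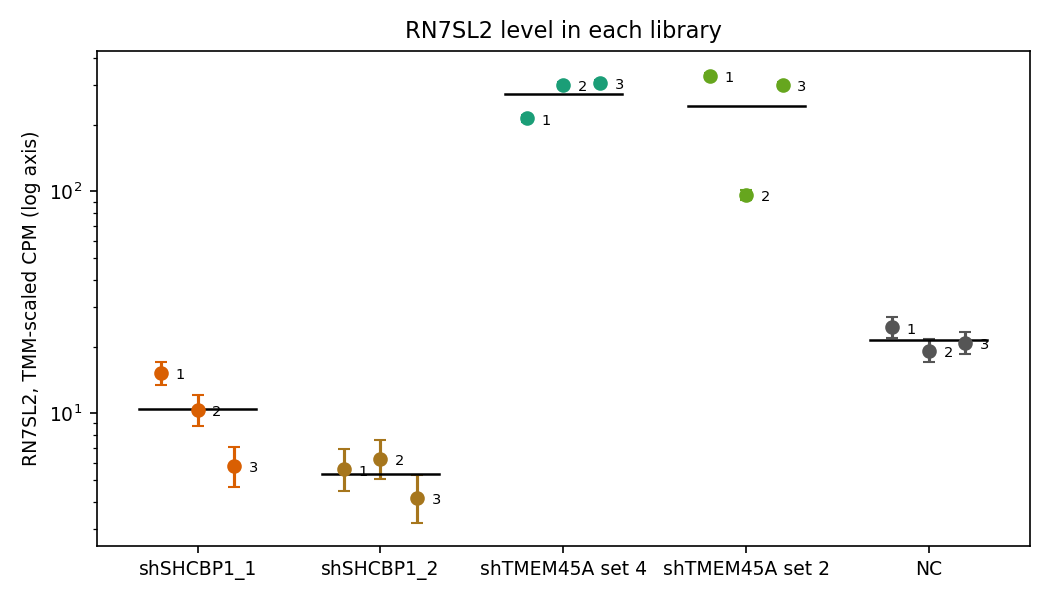
RN7SL2 in each library, in TMM-scaled CPM on a log axis, with exact 95% Poisson intervals (counting error only) and a bar at each group's mean of 3 libraries. Both shTMEM45A sets stand at 96.4 to 331 CPM, the NC libraries at 19.1 to 24.4 CPM and the libraries labelled shSHCBP1 at 4.15 to 15.2 CPM.

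Group means of RN7SL2 were 275 ± 53.6 CPM in set 4, 243 ± 128 CPM in set 2, 10.4 ± 4.71 CPM in shSHCBP1_1 and 5.32 ± 1.06 CPM in shSHCBP1_2, against 21.4 ± 2.68 CPM in NC (SD, n = 3). Set 4 and set 2 did not differ beyond their spread, and neither did both shSHCBP1 groups. The fitted log2 difference from NC was 3.68 (SE 0.28) in set 4 and 3.50 (SE 0.28) in set 2, or 12.8-fold and 11.3-fold. It was -1.02 (SE 0.35) in shSHCBP1_1 and -2.01 (SE 0.40) in shSHCBP1_2, or 2.03-fold and 4.03-fold lower. Leaving out replicate 2 of set 2 gave 3.88 for that set.

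By the edgeR threshold applied to all genes (Benjamini-Hochberg adjusted, 0.05), RN7SL2 was 1 of the genes called in each comparison. Of 19051 genes tested, 35.6% were called higher in set 4, 36.1% higher in set 2, 10.5% lower in shSHCBP1_1 and 15.4% lower in shSHCBP1_2. The share of genes whose libraries did not overlap with NC in the direction of RN7SL2 was 36.2%, 35.5%, 21.3% and 25.1% in the same order of comparisons. RN7SL2 was the single RNA of the 5 that passed the filter on low counts, and results of these contrasts were known when it was chosen, so nothing is read from these shares.

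In 4 of the 5 groups, some replicates of RN7SL2 had counting intervals that did not overlap. In shSHCBP1_1 the 276, 161 and 92 counts gave exact Poisson 95% intervals of 13.4 to 17.1, 8.80 to 12.1 and 4.66 to 7.09 CPM, which did not overlap. In set 2 the 4559, 1371 and 4166 counts gave intervals of 321 to 341, 91.4 to 102 and 293 to 312 CPM, so replicate 2 stood apart. In set 4 replicate 1, with 3110 counts and an interval of 206 to 221 CPM, lay below replicates 2 and 3, with 4130 and 4055 counts. These intervals assume that reads are independent molecules, which cannot be checked without molecular identifiers.

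In NC, replicates 1 and 2 had 352 and 274 counts, with intervals of 21.9 to 27.1 and 17.0 to 21.6 CPM that just failed to overlap. The 301 counts of replicate 3 overlapped with both. In shSHCBP1_2 the 87, 99 and 65 counts had intervals that overlapped in every pair. Overlap of such intervals is not a test of equality, so it does not show that these replicates differed by counting error alone.

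The coefficient of variation (CV, SD over mean) of RN7SL2 was 52.6% in set 2, 19.5% in set 4, 45.1% in shSHCBP1_1, 19.9% in shSHCBP1_2 and 12.5% in NC. The median CV of the 12415 genes at or above a mean log2 CPM of 2 was 9.54%, 7.33%, 4.82%, 4.60% and 5.74% in these groups. In set 2, 99.6% of those genes had a smaller CV than RN7SL2, and in shSHCBP1_1 99.97% did. The share was 91.1% in set 4, 98.1% in shSHCBP1_2 and 87.3% in NC. CV falls as the mean level rises, so these shares are not matched on level. Without replicate 2 the CV of RN7SL2 in set 2 was 6.38%, and without replicate 1 that in set 4 was 1.61%.

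**Figure D2:**
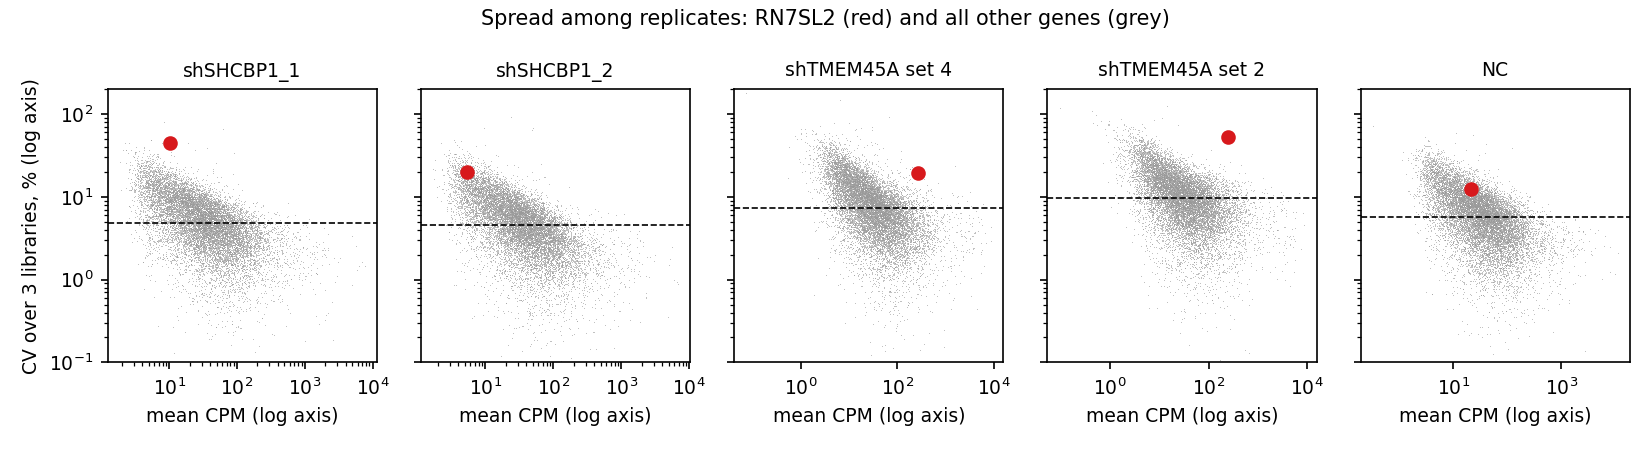
CV over 3 libraries against mean CPM, both on log axes, for 12415 genes (grey) with RN7SL2 in red, 1 panel per group, and a dashed line at the median CV. RN7SL2 lies above the line in all 5 panels, at 52.6% in set 2 and 45.1% in shSHCBP1_1.

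The libraries that were low for RN7SL2 deviated far less across genes. On the log2 scale RN7SL2 lay 1.14 below its group mean in replicate 2 of set 2 and 0.73 below it in replicate 3 of shSHCBP1_1. The median absolute deviation of the 12415 genes was 0.105 in that set 2 library, the highest of the 15, and 0.0478 in that shSHCBP1_1 library. Mitochondrial ribosomal RNA took 0.829% of counts in replicate 2 of set 2, against 0.737% and 0.740% in its other replicates. Whether this share bears on RN7SL2 was not tested.

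Genes were ranked by how closely their levels followed RN7SL2 within groups, as a description only. Over 15 libraries, with each group's mean removed, the highest Pearson r among 11996 genes was 0.929 for DCP1A, a factor of mRNA decapping. HSD17B10, a subunit of mitochondrial RNase P, had 0.928, the telomerase-associated TEP1 0.903, UPF3A of nonsense-mediated decay 0.890 and the Polycomb gene CBX7 0.885. All 5 values are the top of that ranking and share the large deviation of 1 library. Without replicate 2 of set 2 the values were 0.824, 0.826, 0.757, 0.740 and 0.693 over 14 libraries. These 14 libraries had also served to pick the genes. In set 2, where RN7SL2 was lowest in replicate 2, DCP1A was at 32.3, 27.2 and 33.1 CPM and CBX7 at 20.4, 10.97 and 18.7 CPM. In set 4 RN7SL2 was lowest in replicate 1. TEP1 was at 9.11, 9.80 and 8.54 CPM in set 4 and UPF3A at 48.0, 46.2 and 48.5 CPM. Neither was lowest in replicate 1. DCP1A was lowest in that replicate, at 38.43, 39.43 and 39.48 CPM. So were HSD17B10, at 380.9, 383.2 and 392 CPM, and CBX7, at 17.19, 19.97 and 20.28 CPM.

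Rows of 7SL copies were read as well. RN7SL3, a further 7SL gene, had 42, 92 and 116 counts in set 4 and 110, 19 and 73 in set 2. It had 13, 7 and 4 counts in shSHCBP1_1 and 3, 6 and 2 in shSHCBP1_2, against 4, 10 and 4 in NC. Every shTMEM45A library was above every NC library, and the lowest library of each set was the one that was lowest for RN7SL2. On summed counts its ratio to NC was 14.5 (95% counting interval 8.99 to 24.9) in set 4, 11.6 (7.16 to 20) in set 2, 1.16 (0.604 to 2.27) in shSHCBP1_1 and 0.56 (0.239 to 1.25) in shSHCBP1_2. RN7SL3 passed the filter on low counts through the shTMEM45A libraries, where it is high, so no test of it is given.

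The pseudogene RN7SL5P, named after its values were seen, had 3, 24 and 49 counts in set 4 and 23, 2 and 24 in set 2, against 1, 0 and 0 in NC. Its summed counts of 76 and 49 against 1 gave ratios of 79.4 (95% counting interval 13.8 to 3180) and 50.7 (8.68 to 2040). It too was lowest in replicate 1 of set 4 and replicate 2 of set 2. These rows share nearly all of their sequence with RN7SL2, and the sources used here do not say how reads matching several copies were assigned. The split of reads between RN7SL1, RN7SL2 and their copies is therefore uncertain.

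**Figure D3:**
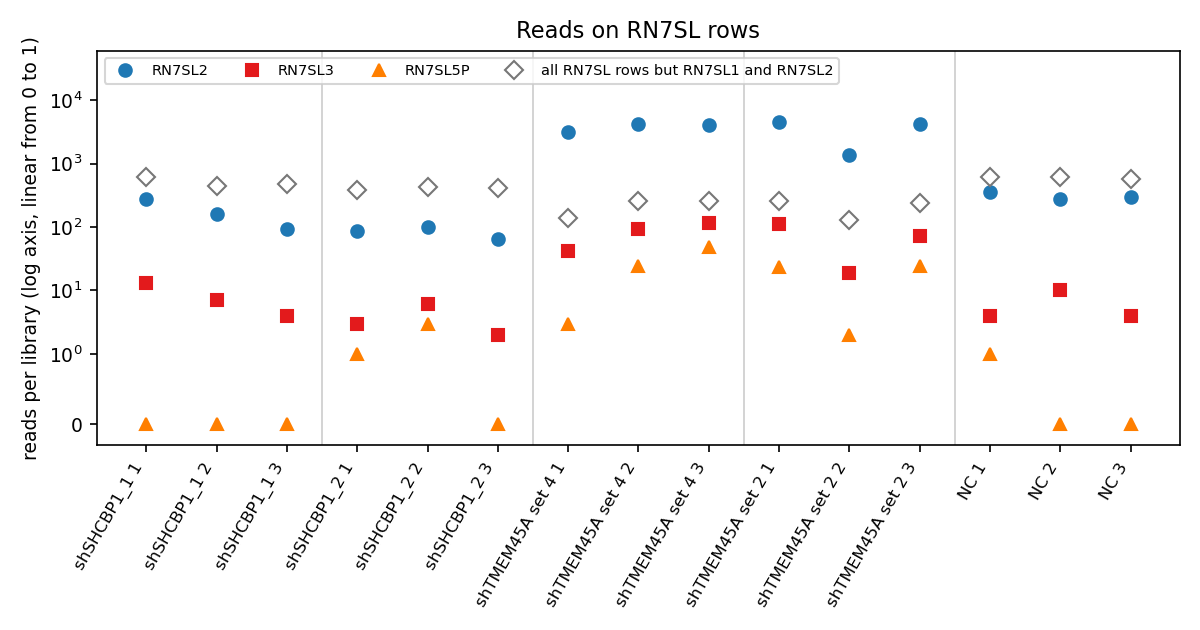
Reads per library on RN7SL2, RN7SL3, RN7SL5P and all RN7SL rows other than RN7SL1 and RN7SL2, on a log axis that is linear from 0 to 1, for the 15 libraries grouped by hairpin. In both shTMEM45A sets RN7SL2, RN7SL3 and RN7SL5P stand higher than in NC while the sum of all RN7SL rows but RN7SL1 and RN7SL2 stands lower, and replicate 2 of set 2 is low on all of them.

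Summed over all rows, the 7SL copies were lower with each hairpin than in NC. There were 678 rows named as RN7SL copies, of which 365 had 0 counts in all libraries. Their sum was 16.1 ± 5.61 CPM in set 4, 15.0 ± 5.17 CPM in set 2, 30.6 ± 2.43 CPM in shSHCBP1_1 and 25.9 ± 1.04 CPM in shSHCBP1_2, against 41.8 ± 1.98 CPM in NC (SD, n = 3). Without RN7SL3 and RN7SL5P it was 8.02 ± 2.26, 8.99 ± 1.25, 30.2 ± 2.25 and 25.5 ± 0.931 CPM in that order, against 41.3 ± 1.80 CPM in NC. For the shTMEM45A sets this is the opposite of RN7SL2, and for both shSHCBP1 groups the same direction. Copies with a read numbered 71 in either shTMEM45A set, 195 in shSHCBP1_1 and 186 in shSHCBP1_2, against 214 in NC.

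Only 16 of the copies passed the filter on low counts, some of them through the groups where they are high, so no count of rises and falls over them is given. RN7SL832P, also named after its values were seen, with 66 counts in set 4, 102 in set 2, 86 in shSHCBP1_1 and 79 in shSHCBP1_2, against 33 in NC, was higher with each hairpin set. On summed counts its ratio to NC was 2.09 (95% counting interval 1.36 to 3.28) in set 4 and 3.2 (2.14 to 4.89) in set 2. It was 2.27 (1.5 to 3.5) in shSHCBP1_1 and 2.19 (1.44 to 3.4) in shSHCBP1_2. With 11, 9 and 13 counts in NC, it passed the filter through the hairpin libraries, where it is high, so no test of it is given.

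The leading copies differed between the groups. RN7SL481P had 0 counts in either shTMEM45A set and 191 in NC. RN7SL809P had 1 count in set 4, none in set 2 and 176 in NC. Both led in the shSHCBP1 groups and in NC. RN7SL481P was thus at least 61-fold lower in set 4 and 61.5-fold lower in set 2 at a floor of 3 counts per group. Both copies were named after their values were seen, so no test of them is given. On summed counts the ratio of RN7SL481P to NC was 0.456 (95% counting interval 0.354 to 0.583) in shSHCBP1_1 and 0.393 (0.3 to 0.512) in shSHCBP1_2. That of RN7SL809P was nearer to 1, at 0.692 (0.551 to 0.869) and 0.63 (0.496 to 0.799).

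RN7SL2 made up nearly all of the RN7SL reads in the shTMEM45A libraries and the smaller part of them elsewhere. It held 94.1% to 95.7% of them in set 4 and 91.3% to 94.6% in set 2. It held 16.3% to 31.3% in shSHCBP1_1 and 13.7% to 18.8% in shSHCBP1_2, against 30.7% to 36.5% in NC. When RN7SL2 and its copies were summed into 1 row, a choice made after seeing the data, the log2 difference from NC was 2.20 (4.60-fold) in set 4 and 2.03 (4.08-fold) in set 2. For the libraries labelled shSHCBP1_1 it was -0.62, and for shSHCBP1_2 it was -1.02, or 2.03-fold lower. The direction of RN7SL2 was the same in every comparison, with smaller differences.

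Pseudogene rows of the other polymerase III RNAs carried few reads, and fewer in the shTMEM45A libraries. Rows named as RN7SK copies, 293 of them with 213 at 0 throughout, summed to 2.69 ± 0.382 CPM in set 4, 2.99 ± 0.564 CPM in set 2, 10.6 ± 1.51 CPM in shSHCBP1_1 and 8.95 ± 0.273 CPM in shSHCBP1_2, against 13.8 ± 0.885 CPM in NC. The 508 rows of 5S ribosomal RNA pseudogenes summed to 2.97 ± 1.27, 2.47 ± 0.800, 16.9 ± 1.62 and 14.9 ± 1.97 CPM in the same order, against 24.1 ± 1.39 CPM in NC. The 1276 rows named for U6, the spliceosomal RNA made by polymerase III, summed to 19.4 ± 1.07, 20.2 ± 1.50, 40.7 ± 4.05 and 33.6 ± 1.57 CPM, against 51.5 ± 5.82 CPM in NC. All 6 shTMEM45A libraries were below all NC libraries in each of these families. RMRP and RPPH1 copies, on 1 and 2 rows, had 0 counts in all libraries.

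Genes for other polymerase III transcripts stood on 20 single rows, of which 9 had 0 counts everywhere and 3 were tested. These 3 reached the filter through the shTMEM45A libraries, where they are high, so their calls there were set by the filter and are not read as a result. They were RN7SL3, given above, the U6 gene RNU6-8 and BCYRN1, a neuronal cytoplasmic RNA. BCYRN1 had 12, 28 and 39 counts in set 4 and 33, 53 and 29 in set 2, against 2, 2 and 1 in NC, ratios of 16.5 (95% counting interval 6.78 to 52.2) and 23.8 (9.91 to 74.7) on summed counts. RNU6-8 had 11, 28 and 30 counts in set 4 and 12, 12 and 17 in set 2, against 0, 3 and 2 in NC. All shTMEM45A libraries were above all NC libraries for both RNAs. For BCYRN1, replicate 2 of set 2 was the highest library of its set, unlike for RN7SL2. The vault and Y RNA genes stayed near 0, with at most 13 counts over the 3 libraries of any group.

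Short RNAs made by polymerase II were few among the genes tested. Of 42 spliceosomal, Cajal body and nucleolar RNA genes on single rows, 17 had 0 counts everywhere and 8 were tested. Which ones were tested depended on the groups where each is high, so no count of rises and falls is given. RNU5A-1, a U5 spliceosomal RNA, had 48 counts in set 4, 52 in set 2, 4 in shSHCBP1_1 and 7 in shSHCBP1_2, against 2 in NC. SNORD3A, a U3 RNA of ribosome assembly, had 71, 111, 13 and 10 counts in that order, against 8 in NC. Both passed the filter through the shTMEM45A libraries alone. SNORA73B, a nucleolar RNA carried in an intron, was at 1.29 ± 0.445 CPM in set 4 and 0.907 ± 0.409 CPM in set 2, against 19.6 ± 1.26 CPM in NC. SNORD17 had 17 and 6 counts in these sets, against 262 in NC.

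SCARNA6 and SCARNA8, of Cajal bodies, had 0 counts in set 4 and 2 each in set 2, against 42 and 39 in NC. In shSHCBP1_2 SNORA73B and SNORD17 fell, by 0.69 and 0.88 on the log2 scale (adjusted p = 0.000308 and adjusted p = 0.0192). The SNORD17 call was lost when any of 4 single libraries, replicates 1 and 2 of NC and 2 and 3 of shSHCBP1_2, was left out. Rows of small nuclear and nucleolar RNA names together took 0.00773% to 0.00865% of counts in the shTMEM45A libraries and 0.0216% to 0.0272% in those labelled shSHCBP1, against 0.0284% to 0.0312% in NC. MALAT1, a nuclear long RNA without a usual poly(A) tail, fell by 3.43 (SE 0.05, adjusted p = 6.04e-30) in set 4 and by 3.8 (SE 0.05, adjusted p = 7.08e-31) in set 2, and it fell by 0.48 and 0.81 in shSHCBP1_1 and shSHCBP1_2. NEAT1, the other nuclear long RNA listed, fell by 1.28 in set 4 and 1.57 in set 2 (SE 0.06 each). It rose by 0.17 in shSHCBP1_1 (edgeR, adjusted p = 0.0228), a call lost under RLE scaling, and was not called in shSHCBP1_2. The part of these shifts in the values of RN7SL2 was not tested.

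The protein partners of 7SL RNA were divided. Among all genes tested, 35.6% rose in set 4, 36.1% in set 2, 9.34% in shSHCBP1_1 and 15.6% in shSHCBP1_2, with median log2 changes of -0.03, -0.04, 0.01 and 0.01. Of 8 genes for signal recognition particle proteins and the receptor, 4 rose and 4 fell in each shTMEM45A set, with list medians of 0.04 in set 4 and 0.01 in set 2. SRP19, which helps assemble the particle, rose by 1.42 (SE 0.09, adjusted p = 2.43e-14) in set 4 and 1.63 (SE 0.09) in set 2, and the receptor subunit SRPRB rose by 0.88 and 0.99. SRP72 fell by 0.69 and 0.79, and the other receptor subunit, SRPRA, by 0.65 and 0.73. In shSHCBP1_1 none rose and 2 fell, and in shSHCBP1_2 none rose and 3 fell, SRP14 by 0.21 and 0.25 and SRP72 by 0.19 and 0.21 (SE 0.05 each). None of these 4 calls was kept when libraries were scaled by total counts alone, where 1 gene of the list rose in shSHCBP1_1, 4 in shSHCBP1_2 and none fell.

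Of 7 genes for proteins of the 7SK particle and P-TEFb, 4 rose and 3 fell in set 4, 4 rose and 2 fell in set 2, 3 rose and 0 fell in shSHCBP1_1, and 3 rose and 1 fell in shSHCBP1_2. MEPCE, which caps 7SK RNA, rose in all, by 1.59 (SE 0.08) in set 4, 1.76 (SE 0.08) in set 2, 0.44 (SE 0.08, adjusted p = 0.000161) in shSHCBP1_1 and 0.66 (SE 0.08) in shSHCBP1_2. HEXIM1, the P-TEFb inhibitor of the particle, rose in all 4 comparisons too, by 1.0 in set 4, 0.99 in set 2, 0.32 in shSHCBP1_1 and 0.37 in shSHCBP1_2. LARP7, which binds the 3′ end of 7SK RNA, rose by 0.84, 0.90, 0.30 and 0.45 in that order of comparisons (SE 0.08 each). The cyclins of P-TEFb, CCNT1 and CCNT2, fell in both shTMEM45A sets, CCNT1 by 0.82 and 0.84 (SE 0.06 each). CDK9, its kinase, rose by 0.56 (SE 0.07, adjusted p = 1.61e-08) in set 4 and 0.38 (SE 0.07, adjusted p = 1.32e-05) in set 2. It fell by 0.20 in shSHCBP1_2, a call lost under total counts and when any of 4 single libraries was left out. List medians were 0.56 in set 4, 0.38 in set 2, -0.02 in shSHCBP1_1 and 0.02 in shSHCBP1_2.

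Genes for the proteins of RNase P and RNase MRP were mostly higher. All 11 rose in set 4 and 10 of 11 in set 2, with none lower and list medians of 1.27 and 1.36. RPP25 led with 2.38 (SE 0.08, adjusted p = 2.77e-21) in set 4 and 2.83 (SE 0.08) in set 2, followed by POP5 with 1.86 and 1.98. In shSHCBP1_1, 7 rose and 2 fell (median 0.30), and in shSHCBP1_2, 8 rose and none fell (median 0.40), led by RPP25 at 0.69 and 0.88 and RPP38 at 0.53 and 0.64. In shSHCBP1_1, POP7 and RPP21 fell, by 0.18 and 0.79. The RPP21 call was lost without replicate 1 of NC or replicate 3 of shSHCBP1_1, and the POP7 call under total counts, without replicate 3 of NC or without replicate 2 of shSHCBP1_1. Scaling by relative log expression (RLE) called 4 higher and 2 lower in shSHCBP1_1.

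Most but not all genes of the polymerase itself were higher in the shTMEM45A libraries. Of 18 subunits, 14 rose and 3 fell in either set, with medians of 0.88 in set 4 and 0.98 in set 2, and 3 rose and 3 fell in each shSHCBP1 group, with medians of -0.02. The largest rises in set 4 and set 2 were POLR2L (2.89, SE 0.07, and 2.93, SE 0.07) and POLR2F (1.75 and 1.83), small subunits shared by several polymerases. POLR3E fell by 0.96 and 0.89, POLR3D by 0.93 and 0.95 and POLR3A by 0.40 and 0.28, all subunits specific to polymerase III. Other such subunits rose, among them POLR3C by 1.27 and 1.63. In shSHCBP1_1 and shSHCBP1_2, POLR3C rose by 0.81 and 1.09 (SE 0.08 each) and CRCP by 0.51 and 0.68, and POLR3D fell by 0.41 and 0.52 (SE 0.07 each). POLR1C fell by 0.22 in shSHCBP1_1 and POLR3E by 0.19 in shSHCBP1_2, both calls lost under total counts. The POLR3E call was also lost without replicate 1 of shSHCBP1_2. Under total counts 8 subunits rose and 1 fell in shSHCBP1_1, and 6 rose and 1 fell in shSHCBP1_2.

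Of 19 genes for polymerase III transcription factors, 9 rose and 9 fell in either shTMEM45A set, with medians of 0.03 in both. SNAPC5, of the complex that starts transcription of 7SK, U6, RMRP and RPPH1 genes, rose by 1.87 (SE 0.13) in set 4 and 1.96 (SE 0.13) in set 2, and GTF3C6 of factor TFIIIC by 1.81 and 1.94 (SE 0.06 each). BDP1 of factor TFIIIB fell by 1.61 and 1.74 (SE 0.11 each), and GTF3C3 by 0.97 and 1.10 (SE 0.07 each). BRF2, the TFIIIB subunit used at such genes, fell by 0.83 (SE 0.19) in set 4 and 1.42 (SE 0.20) in set 2. In shSHCBP1_1, 4 rose and 2 fell, and in shSHCBP1_2, 4 rose and 3 fell, but RLE scaling gave 0 and 5 in shSHCBP1_1 and total counts gave 8 and 0 there, so no direction is given for the list. SNAPC1 rose by 0.65 (SE 0.11, adjusted p = 3.74e-05) and GTF3C4 by 0.32 (SE 0.05) in shSHCBP1_2. The falls of BDP1 in either shSHCBP1 group, of GTF3A in shSHCBP1_1 and of SNAPC3 in shSHCBP1_2, each 0.27 or 0.28 in size, were lost under total counts. The rises of SNAPC5 and GTF3C6 in shSHCBP1_1, 0.40 and 0.21, were lost under RLE scaling.

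Of 9 genes whose proteins bind such RNAs or trim their 3′ ends, 2 rose and 5 fell in set 4 and 3 rose and 5 fell in set 2, with medians of -0.16 and -0.17. TOE1, an exonuclease of small nuclear RNA ends, rose by 1.65 (SE 0.13) in set 4, 1.81 (SE 0.12) in set 2, 0.72 (SE 0.13) in shSHCBP1_1 and 1.0 (SE 0.13) in shSHCBP1_2. TUT1, which adds uridines to U6 RNA, rose by 1.30 and 1.43 in set 4 and set 2. TROVE2, the Y RNA-binding Ro protein, fell by 1.48 in each set (SE 0.09), and the nuclear exosome nuclease EXOSC10 by 1.10 and 0.97. In shSHCBP1_1, 2 rose and 1 fell, and in shSHCBP1_2, 3 rose and 1 fell, with medians of 0.10 and 0.14. The exosome nuclease DIS3 fell by 0.31 and 0.23, the second call lost under total counts. The polymerase TENT4B, which adds short tails to RNAs, rose by 0.31 and 0.38, the first call lost under RLE scaling.

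**Figure D4:**
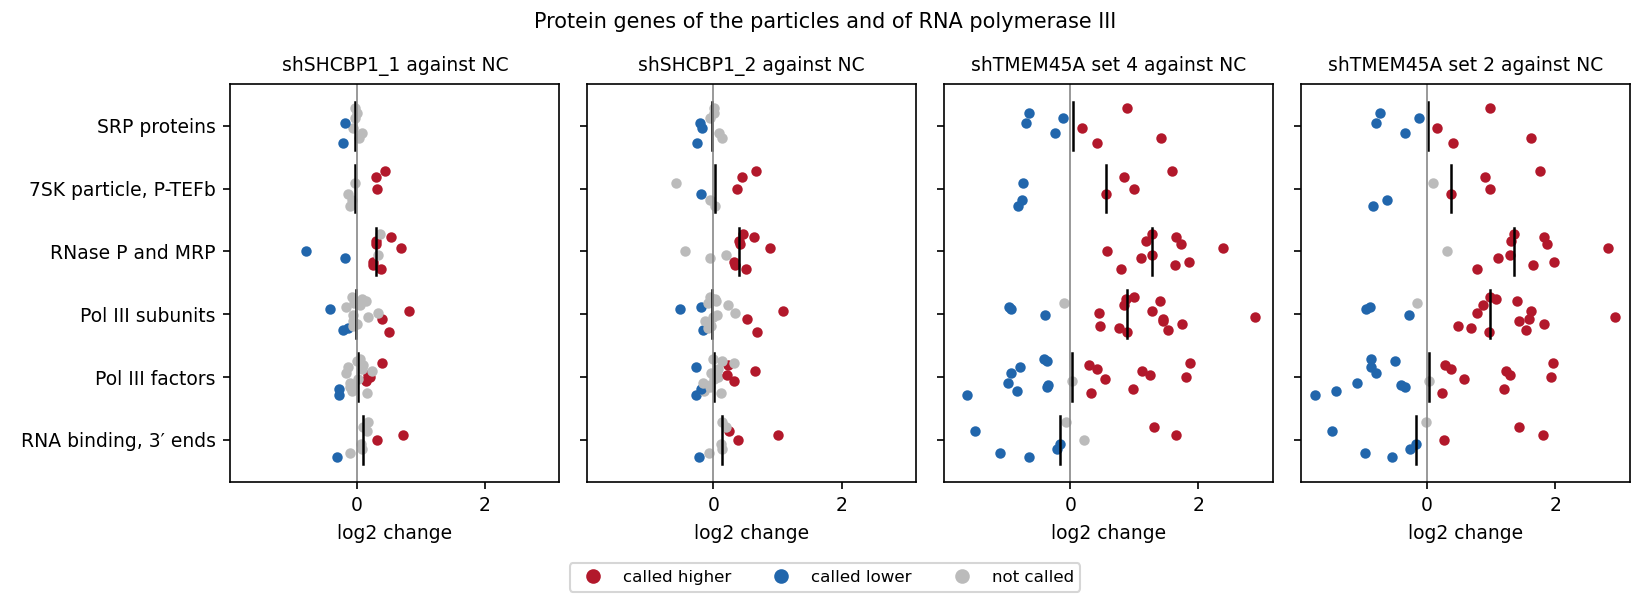
Log2 change against NC (edgeR) of 72 protein genes in 6 lists, 1 panel per hairpin set, with called rises in red, called falls in blue, genes not called in grey and a black bar at each list's median. The RNase P and MRP genes lie highest, with medians of 1.27 in set 4 and 1.36 in set 2, and the SRP genes divide to both sides of 0.

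Over the 6 lists, 44 of 72 genes rose and 24 fell in set 4, 44 rose and 23 fell in set 2, 19 rose and 10 fell in shSHCBP1_1, and 21 rose and 11 fell in shSHCBP1_2. Among all genes tested, 38.9% fell in set 4, 39.8% in set 2, 10.5% in shSHCBP1_1 and 15.4% in shSHCBP1_2, beside the shares that rose given with the first list. All 4 comparisons share the NC libraries. Scaling moved the direction of the shSHCBP1 calls: under total counts 36 rose and 3 fell in shSHCBP1_1 and 39 rose and 1 fell in shSHCBP1_2. Over all genes 47.0% of the calls in shSHCBP1_1 were higher, against 29.1% under RLE and 86.0% under total counts, and in shSHCBP1_2 50.3%, against 34.6% and 81.7%. Total counts moved the median log2 change of all genes by 0.14 and 0.16 in shSHCBP1_1 and shSHCBP1_2 and by -0.19 in each shTMEM45A set.

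Transcript length moved with these counts in the shTMEM45A sets. By the longest coding transcript of the mouse gene of the same symbol, 85.1% of 12415 genes had a length. Of the 2114 shortest of these, 76.2% rose in set 4 and 75.2% in set 2. Of the 2114 longest, with a median of 6918.5 nt, 10.5% and 11.1% rose. Of the RNase P and MRP genes 7 of 11 were among the shortest, as were 9 of 18 subunits of the polymerase, and none of either was among the longest. For the SRP genes only 75% had a length, so that check is void. The part of length in the list counts was not tested.

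Genes listed as neighbours of the RNA genes did not share a direction. Their positions were not checked, as no human coordinates were used. PARP2, which shares a promoter region with RPPH1, fell by 1.09 (SE 0.06) in set 4, 1.19 (SE 0.06) in set 2, 0.23 in shSHCBP1_1 and 0.45 in shSHCBP1_2, and the shSHCBP1_1 call was lost under total counts. RPS29, near the 7SL genes, was at 1354 ± 147 CPM in set 4 and 1352 ± 146 CPM in set 2, against 270 ± 12.9 CPM in NC, and rose. LRR1, its neighbour, rose by 1.21 and 1.33 (SE 0.11 each). In shSHCBP1_2, under TMM scaling, RPS29 fell by 0.26 (SE 0.07) and LRR1 rose by 0.38 (SE 0.11). Neither was called in shSHCBP1_1. CCDC107, beside RMRP, rose by 1.06 and 0.79 (SE 0.24 each) and was not called in either shSHCBP1 group. FBXO9 and ICK were both listed for RN7SK. FBXO9 fell by 0.65 and 0.43 in set 4 and set 2 (SE 0.07 each). ICK rose by 0.74 and 0.93 (SE 0.14 each) in shSHCBP1_1 and shSHCBP1_2 and was not called in either shTMEM45A set.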

How the data were processed

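The authors deposited 2 tables of raw counts per gene symbol, 58735 rows each and not normalized, per the file headers; 200 names on 1768 rows that repeat or that a spreadsheet altered were left out, holding 0.141% to 0.236% of counts. Per the labels' protocols, polyadenylated RNA was copied with an unstranded NEBNext Ultra kit. No source used here names the aligner or the counting program. The labels give the mouse as organism and the submitters' processing notes name mm10, but the tables hold human symbols, so no coordinates or sequences are printed.

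Genes were filtered with filterByExpr (count minimum 10, total 15) and scaled by TMM, and 15 libraries entered a fit of group means in edgeR 4.0.16 (R 4.3.3, quasi-likelihood F test, Benjamini-Hochberg over 19051 genes). SE is the log2 change over the root of F. The pipeline was tested on simulated data. Whether replicates are separate cultures is not stated, so a p-value covers the spread between libraries alone, which may be technical. Alternatives were RLE and total count scaling, library sizes without the members, no filter, a count minimum of 50, DESeq2 1.42.0, a fit of NC and 1 target, a replicate block and leaving out each library.

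The members and gene lists were chosen with earlier results of these data known. By rule, named genes are the members, the targets, up to 2 rises and 2 falls of largest size per list and comparison, and the 5 genes most like RN7SL2 by r over 15 libraries (prior count 2). Other genes were named outside this rule in some or all comparisons, among them LARP7, CDK9, HEXIM1, POLR3A, CCDC107, the line markers and several RN7SL copies.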

Additional observations from a re-analysis of the deposited data

How the results depend on the processing

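The direction of RN7SL2 was the same under each alternative run. Its log2 difference from NC lay between 3.49 and 3.71 in set 4, 3.31 and 3.54 in set 2, -1.10 and -0.88 in shSHCBP1_1, and -2.09 and -1.84 in shSHCBP1_2 under the planned settings. Summing its copies, a choice made after seeing the data, gave 2.20, 2.03 and -1.02 in set 4, set 2 and shSHCBP1_2, the sum of the copies being lower than in NC in each. Leaving out 1 library gave 3.58 to 3.83, 3.21 to 3.88, -1.42 to -0.73 and -2.14 to -1.86 in these 4 comparisons. The CV of RN7SL2 then ranged from 1.61% to 26.0% in set 4, 6.38% to 77.6% in set 2, 26.9% to 63.5% in shSHCBP1_1, 7.46% to 28.2% in shSHCBP1_2 and 5.75% to 17.0% in NC, and each rests on 3 libraries. Of the 72 protein genes, 11 rose and 16 fell in shSHCBP1_1 under RLE, 36 and 3 under total counts, and 11 and 17 with DESeq2. In shSHCBP1_2 total counts gave 39 and 1. Leaving out 1 library gave 12 to 23 rises and 7 to 11 falls in shSHCBP1_1, 18 to 22 and 7 to 12 in shSHCBP1_2, 43 to 45 and 21 to 24 in set 4, and 42 to 44 and 21 to 23 in set 2. The low of 12 came without replicate 3 of shSHCBP1_1. Genes called over the whole table numbered 3787 in shSHCBP1_1, 6077 there in a fit of NC and SHCBP1 libraries alone, and 2655 to 4566, 4605 to 6722, 13609 to 14728 and 14008 to 14842 in shSHCBP1_1, shSHCBP1_2, set 4 and set 2 with a library left out. Of 116 called changes of list genes named by rule, 22 lost the call under some alternative, all in the shSHCBP1 comparisons. Changes of genes named outside the rule are not among these 116. Same-numbered libraries did not deviate together (r -0.07 to 0.136, over 0.1 in 1 of 18 pairs), so no shared effect of the number was seen. Whether same-numbered libraries were made together cannot be told from these values. With the replicate block, the log2 difference of RN7SL2 was -1.05, -2.01 and 3.43 in shSHCBP1_1, shSHCBP1_2 and set 2, and 4016, 6198 and 14362 genes were called. Set 4 carries no number tied to the labels and could not be blocked. The cause of these shifts was not tested. For the 4 RNAs at 0, fewer than 3 counts per library, 0.165 to 0.229 CPM, cannot be told from 0. Why these RNAs had no counts was not tested.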
